A study of Mus musculus with 8 samples.

Results

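The cortex keratins of the hair shaft measured here were Krt31, Krt33a, Krt34, Krt35 and Krt88, 5 genes among the 6587 mouse genes that could be named on the arrays. They were chosen by name, as the rows whose RefSeq accession maps to 1 of these symbols, and each had a single row (NM_010659 for Krt31, NM_027983 for Krt33a, NM_027563 for Krt34, NM_016880 for Krt35 and NM_025487 for Krt88). Whole skin of near naked hairless mutant mice aged 7 days was set against skin of wild type mice of the same age on 8 arrays, each hybridized with RNA of both genotypes in different dyes. The mutant RNA carried Cy3 on arrays 1, 3, 5 and 8 and Cy5 on arrays 2, 4, 6 and 7. The design text counts 5 biological replicates from 1 litter, so several arrays share an animal and p-values over arrays are too small. No source used here gives the allele, the zygosity, the sex or the strain of the animals.

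A growing hair is built by matrix cells that move up from the bulb and fill with keratin filaments. In the cortex, the bulk of the shaft, acidic type I hair keratins pair with basic type II hair keratins, and keratin-associated proteins then cross-link the filaments. The hair keratins are switched on in sequence, with Krt35 already in the matrix and precortex and Krt31, Krt33a and Krt34 higher up in the cortex. Hairless, the protein of the gene altered in this mutant, is a nuclear corepressor that acts in the follicle. At the age studied, mouse skin is in the growth phase of its first hair coat.

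Of the type I members, Krt33a, Krt34, Krt31 and Krt35 lie in 1 run of the gene order of the assembly GRCm38.p6, with Krt33b between Krt33a and Krt34 and Krt32 between Krt31 and Krt35. Krt88 lies among the type II hair keratins, between Krt87 and Krt81. RefSeq's promoter table held a sequence for 2 of the 5 members, Krt31 and Krt34, which are next to each other. The 250 bases before the start of each are printed because they show what these neighbours share in sequence, against which their ratios can be read. Capitals mark every match to the letters listed after them, and both sequences run 5′ to 3′ on the minus strand.
Krt31, chr11:100050552-100050801, GRCm38.p6: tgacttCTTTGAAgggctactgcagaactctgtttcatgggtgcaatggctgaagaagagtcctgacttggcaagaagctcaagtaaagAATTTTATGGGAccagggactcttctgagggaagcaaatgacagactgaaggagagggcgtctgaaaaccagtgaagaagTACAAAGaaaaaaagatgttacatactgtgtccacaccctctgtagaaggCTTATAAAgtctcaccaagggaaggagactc
Krt34, chr11:100041555-100041804, GRCm38.p6: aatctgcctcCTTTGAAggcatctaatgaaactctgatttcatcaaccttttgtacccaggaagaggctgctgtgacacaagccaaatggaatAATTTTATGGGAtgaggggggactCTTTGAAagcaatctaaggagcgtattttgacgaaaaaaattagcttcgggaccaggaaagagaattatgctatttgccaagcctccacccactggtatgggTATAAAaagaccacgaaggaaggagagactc

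The longest run common to both stretches was AATTTTATGGGA, 12 bases that begin 161 bases before the start of Krt31 and 157 bases before that of Krt34. It occurred on either strand in 3 of 32536 promoter stretches of the same length (0.00922%), those of Krt31, Krt34 and the predicted gene Gm46893. The run was chosen from these same stretches, so its matches in Krt31 and Krt34 were fixed in advance. Its share cannot be set beside those of the other letters below. The run contains TTTATGGG, which fits the letters searched for HOXC13, a homeobox factor of the hair matrix (TTAAT or TTTAT, then N, then AA, AG, GA or GG). Those letters were found in 17.2% of all stretches. CTTTGAA, one of the spellings searched for LEF1 and its TCF relatives (CTTTG followed by AA, AT, TA or TT), stood 244 bases before the start of Krt31 and 240 bases before that of Krt34. LEF1 is the transcription factor through which Wnt signals act in the hair matrix, and its letters occurred in 14.9% of stretches. Each gene had a further match, TACAAAG on the opposite strand 81 bases before the start of Krt31 and CTTTGAA 133 bases before that of Krt34. The TATA box letters TATAAA began 29 and 31 bases before the starts, and 12.3% of stretches held them. In Krt31 they overlap CTTATAAA, a second match for HOXC13 on the opposite strand. A match describes letters and is not a binding site shown by these arrays.

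All ratios below are log2 values of the mutant against the wild type, with base 2 assumed. No source used here states their direction, which is called likely because the labels put the sample in channel 1 and the design text names the mutant first. An array carried a value in 41.3% to 88.3% of its rows, and the SD of an array's ratios ran from 0.57 to 1.60. Arrays 1 to 3 had the fewest values, and of the 5 cortex keratins 2 had a value on array 1, 4 on array 2 and 2 on array 3. All 5 had a value on arrays 4 to 8. A ratio carries no level, so the abundance of these RNAs in the skin, and the order of their levels, could not be read, and the labelled tissue could not be checked by marker levels. Whole skin was used, so fewer cortex cells and less RNA per cell cannot be told apart. Type I hair keratins resemble each other closely in sequence, probe sequences were not analysed here, and signal shared between probes was not tested. For Hr, the hairless gene, 3 of 6 arrays were above 0 and 3 below, from -1.16 to 0.60, and Hr was not in the fit.

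Among the cortex keratins, Krt31 was lower in the mutant skin. For Krt33a, below 0 on 6 of 7 arrays, the result depended on the adjustment over genes and on how arrays were weighted. Krt34, Krt35 and Krt88 passed none of the tests run on them. Genes measured on 3 or more of the 4 arrays in both dye orientations were fitted in limma for their mean ratio and a term for the dye, and p-values were adjusted over the 3779 genes tested (Benjamini-Hochberg, threshold 0.05). Krt31, Krt33a and Krt35 passed this filter on missing values and Krt34 and Krt88 did not. Of the 3 tested, 1 was lower and none was higher. Over all genes tested, 2.8% were lower and 0.662% were higher.

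**Figure D1:**
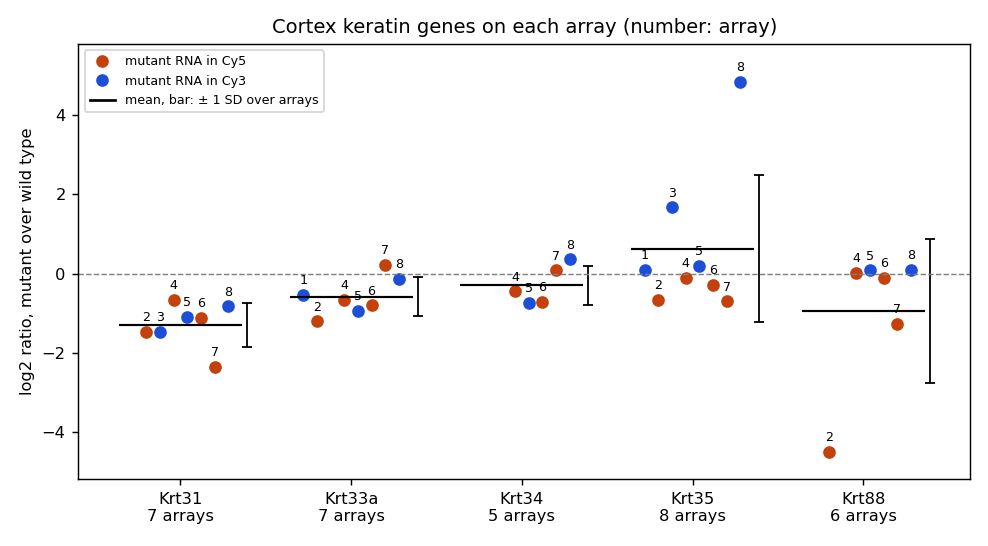
Log2 ratio of mutant over wild type (vertical axis) of each cortex keratin gene on every array with a value, coloured by the dye of the mutant RNA and numbered by array. Lines are means and bars ± 1 SD over arrays. All 7 points of Krt31 lie below 0, the points of Krt35 split by colour around 0 with array 8 at 4.83, and Krt88 has array 2 at -4.51.

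Krt31 encodes an abundant type I keratin of the cortex. Its log2 ratio was -1.48 on array 2, -1.48 on array 3, -0.67 on array 4, -1.10 on array 5, -1.13 on array 6, -2.35 on array 7 and -0.83 on array 8, with no value on array 1. Every measured array was thus below 0, a pattern that 4.13% of the genes tested showed. The fitted ratio was -1.27 ± 0.23 (SE, 7 arrays, limma adjusted p = 0.0133), with a 95% interval from -1.78 to -0.77. On a linear scale this is 41.4% of the wild type level, with an interval from 29.2% to 58.8%. Were the direction of the table the opposite one, it would be 241% of the wild type level, with an interval from 170.0% to 343%. Of the 3779 genes tested, 57 had a lower fitted ratio and 3721 a higher one, counts that would change places with the direction. An exact sign-flip test over the 7 arrays, two-sided and unadjusted, gave p = 0.0156, which is the lowest value possible with 7 arrays. The dye orientations overlapped, with a mean of -1.41 ± 0.71 (SD, n = 4) for mutant RNA in Cy5 and -1.14 ± 0.33 (SD, n = 3) for mutant RNA in Cy3. The dye part of the ratio was -0.27 ± 0.46 (SE, limma adjusted p = 0.702). The call was lost without array 5 (limma adjusted p = 0.0514) and on arrays 4 to 8 alone (-1.17, limma adjusted p = 0.123), where limma called 0 of 4700 genes (741 had an unadjusted p under 0.05). With the table read as Cy5 over Cy3 the ratio was -0.14 and not past the test, and 0.106% of genes were lower. That reading turns the sign of the arrays with mutant RNA in Cy3, so its test is the same as that of the dye part.

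Krt33a encodes a further type I cortex keratin. It stood at -0.53 on array 1, -1.21 on array 2, -0.67 on array 4, -0.95 on array 5, -0.80 on array 6, 0.22 on array 7 and -0.14 on array 8. All arrays but array 7 were below 0. The fitted ratio of -0.58 ± 0.22 (SE, 7 arrays) did not pass the test (limma adjusted p = 0.184), and its 95% interval ran from -1.06 to -0.09. The exact sign-flip test, two-sided and unadjusted, gave p = 0.0469. Before adjustment the limma p was 0.0238, and 737 of the 3779 genes tested had an unadjusted limma p under 0.05. The mean was -0.62 ± 0.60 (SD, n = 4) for mutant RNA in Cy5 and -0.54 ± 0.40 (SD, n = 3) for mutant RNA in Cy3, so the orientations overlapped here too. With arrays weighted by their residual spread in limma, Krt33a was lower at -0.71 (adjusted p = 0.00849), under a setting that called 8.12% of genes lower.

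Krt34, the direct neighbour of Krt31, is also a type I cortex keratin. It had values on 5 arrays, at -0.45 on array 4, -0.75 on array 5, -0.71 on array 6, 0.08 on array 7 and 0.36 on array 8. The 3 arrays 4 to 6 were below 0 and arrays 7 and 8 were above. The mean was -0.29 ± 0.49 (SD, n = 5), and an exact sign-flip test, two-sided, gave p = 0.25, where 5 arrays cannot go below 0.0625. With a filter of at least 2 arrays of each orientation, under which 1.81% of genes were lower, Krt34 entered the fit at -0.28, with a 95% interval from -0.90 to 0.35 (limma adjusted p = 0.657). Without 1 array in turn its mean ran from -0.46 to -0.18.

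On the 5 arrays that measured both, Krt34 and Krt33a ran close together. Krt33a was lower than Krt34 by 0.22, 0.20, 0.10 and 0.50 on arrays 4, 5, 6 and 8 and higher by 0.14 on array 7 (mean difference -0.18 ± 0.23, SD, n = 5). Both were above their other values on arrays 7 and 8, where Krt31 stood at -2.35 and -0.83. Krt31 minus Krt34, next to each other in the genome, was -0.22, -0.35, -0.42, -2.44 and -1.19 on arrays 4 to 8, a mean of -0.92 ± 0.93 (SD, n = 5). Krt31 was below Krt34 on every array that measured both. It was the lowest of all cortex keratins on 4 of the 5 arrays that measured every member, and Krt33a was the lowest on array 4.

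Krt35, the type I keratin of the matrix and precortex, was the member with values on all 8 arrays. It stood at 0.10 on array 1, 1.67 on array 3, 0.19 on array 5 and 4.83 on array 8, all with the mutant in Cy3. With the mutant in Cy5 it stood at -0.66 on array 2, -0.11 on array 4, -0.29 on array 6 and -0.70 on array 7. The orientations did not overlap, and every array with the mutant in Cy3 was above 0 while every array with the mutant in Cy5 was below. The same order without overlap was seen in 11.6% of genes tested, and the opposite order in 14.8%. The fitted ratio of 0.63 ± 0.42 (SE, 8 arrays) did not pass (limma adjusted p = 0.434), with a 95% interval from -0.29 to 1.55, and the exact sign-flip test, two-sided, gave p = 0.461. The dye part was -2.14 ± 0.85 (SE), with a limma adjusted p of 0.119, where 1.75% of genes had a dye part past the test. Without array 8 the fitted ratio was 0.11. Read as Cy5 over Cy3, the ratio of Krt35 was -1.07, opposite in sign to the reading used here. Its limma adjusted p of 0.119 is that of the dye part, whose test this reading repeats.

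Krt88 was the type II member. It had values on 6 arrays, at -4.51 on array 2, 0.02 on array 4, 0.08 on array 5, -0.11 on array 6, -1.26 on array 7 and 0.10 on array 8. Values on arrays 4, 5, 6 and 8 lay close to 0, and array 2 lay far below. The mean was -0.95 ± 1.82 (SD, n = 6), and the exact sign-flip test, two-sided, gave p = 0.344. Without array 2 the mean was -0.24. At a filter of at least 2 arrays of each orientation the fitted ratio was -0.69, with a 95% interval from -1.94 to 0.57 (limma adjusted p = 0.579).

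Differences between members were read within an array, where they share RNA, dye and hybridization. Of the possible pairs, 6 shared at least 6 arrays and were compared with exact sign-flip tests, two-sided, adjusted over these 6 pairs. Krt31 was below Krt35 on 7 of 7 arrays, with a mean difference of -1.997 ± 1.83 (SD) and p = 0.0156, the smallest that 7 arrays can give in this exact test, and 0.0938 after adjustment. The mean difference was -0.97 where Cy5 labelled the mutant and -3.37 where Cy3 did. Krt31 was below Krt33a on 5 of 6 arrays, with a mean difference of -0.67 ± 0.96 (SD, exact adjusted p = 0.188). On the remaining array, array 4, they differed by 0.002, and without array 7 the mean difference was -0.29. Krt31 was below Krt88 on 5 of 6 arrays, with a mean difference of -0.31 ± 1.65 (SD, exact adjusted p = 0.719) that held array 2 at 3.03. Without array 2 that mean was -0.98. For Krt33a minus Krt35 the mean was -1.06, for Krt33a minus Krt88 0.35 and for Krt35 minus Krt88 1.49 (exact adjusted p = 0.188, 0.719 and 0.328). No pair passed the threshold after adjustment. On its own no pair could, because the smallest p that 7 arrays can give becomes 0.0938 over 6 pairs. For the pairs that share 6 arrays the smallest p of the exact test is larger, 0.03125 before adjustment. The lower ratio of Krt31 is thus neither shown to differ from those of Krt33a, Krt35 and Krt88 nor shown to equal them. Its difference from Krt34, on 5 shared arrays, was not tested.

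Arrays differed in spread, so each member was also placed among the named genes of its own array. The share of named genes with a lower ratio than Krt31 was 17.8% on array 2, 9.40% on array 3, 21.1% on array 4, 2.74% on array 5, 4.85% on array 6, 0.52% on array 7 and 13.0% on array 8. Krt31 was thus low on every array that measured it, and on array 7 only 31 of 5959 named genes were lower. For Krt33a the lowest share was 4.15% (array 5), the median 21.0% and the highest 61.3% (array 7). For Krt34 the lowest was 7.65% (array 5) and the highest 68.8% (array 8). Krt35 ranged from 16.9% on array 7 to 98.8% on array 8, where 61 of 5019 named genes were higher. Krt88 ranged from 1.78% on array 2 to 57.7% on array 8. On array 2, whose ratios had the widest spread, 66 of 3713 named genes lay below Krt88.

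**Figure D2:**
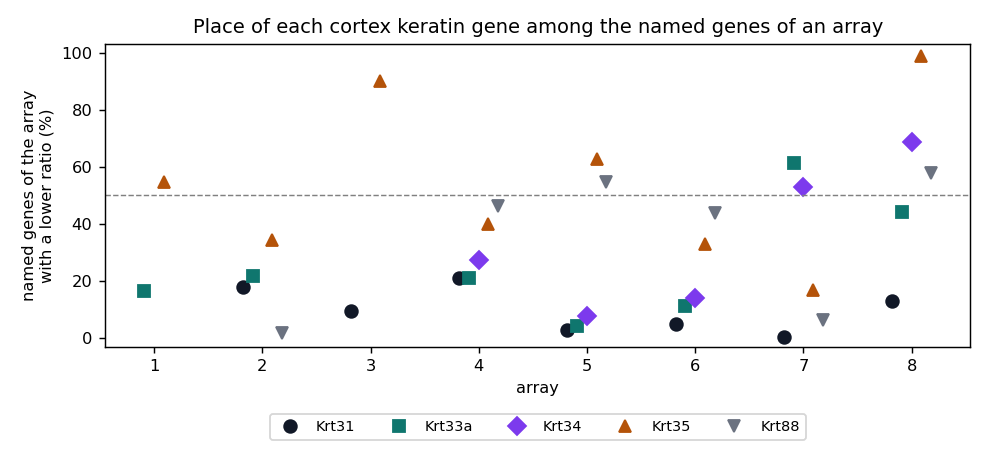
Percentage of the named genes of an array with a lower log2 ratio than each cortex keratin gene (vertical axis), by array (horizontal axis, points offset sideways for clarity). The dashed line marks the middle of the scale. Krt31 stays at or below 21.1% on all 7 arrays with a value, while Krt35 spans 16.9% to 98.8%.

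Genes were ranked by the Pearson correlation of their ratios with those of a member over at least 7 shared arrays, as a description across arrays that share animals and dyes. For Krt31, compared with 1779 genes, the most alike were 4930550L24Rik (r = 0.99), Alg13 (r = 0.97), which acts in protein glycosylation, the proteasome subunit gene Psmc1 (r = 0.95), Lrrc18 (r = 0.94) and Vps28 (r = 0.92), a subunit of an endosomal sorting complex. Without array 7 these were 0.98, 0.97, 0.90, 0.77 and 0.73 over 6 arrays. For Krt33a, compared with 2183 genes, they were the histone gene H3c7 (r = 0.87), Fabp5 (r = 0.85), Samhd1 (r = 0.85), Cyp4b1 (r = 0.83) and Slc26a5 (r = 0.82). Of these Fabp5, a fatty acid binding protein of the epidermis, had a fitted ratio of -1.59 and Cyp4b1, a cytochrome P450, of -1.17, both past the test (limma adjusted p = 0.0260 and 0.0247). For Krt35, compared with 2975 genes, they included Calm2 (r = 0.997), the chemokine receptor gene Cxcr4 (r = 0.99), Zfp329 (r = 0.99) and Cnot8 (r = 0.99). Calm2 stood at up to 4.66, Cxcr4 at up to 5.30, and none of these 4 passed the test. Without array 8 their correlations were 0.99, 0.96, 0.98 and 0.95 over 6 arrays. No gene of the keratin lists was among the genes named here, but the cortex keratins were left out of the ranking. Krt31 had no value on array 1, so genes without a value on any of arrays 2 to 8 could not enter its ranking. Krtap14, with no value on array 3, and Krtap15, with none on array 5, were shut out in this way. Krtap9-1, Krt71 and Krt27, with values on all 8 arrays, were ranked and were not among the 5 genes most like Krt31.

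The other keratin genes and the keratin-associated proteins were counted from the same fit. None of the 12 other hair shaft keratins listed, among them the type II cortex and cuticle partners Krt81, Krt85 and Krt86, had a row that could be named here. Of the keratins of the inner root sheath, the layer that moulds the growing shaft, both tested members had fitted ratios below 0, as had 44.7% of all genes tested. Krt71 fell by 0.79 on the log2 scale (SE 0.18, limma adjusted p = 0.0362, below 0 on 8 of 8 arrays), a call kept only without array 3, and Krt27 at -0.77 did not pass (limma adjusted p = 0.0648). Krt27 had the same split by dye as Krt35 and 11.6% of genes tested, with all arrays of mutant RNA in Cy3 above all arrays of mutant RNA in Cy5. Of the keratin-associated proteins, 8 were tested, all with fitted ratios below 0, against 44.7% of all genes tested (median -1.15, against 0.05 over all genes tested). Of these, 3 were lower, Krtap9-1 at -1.26, Krtap14 at -1.28 and Krtap15 at -1.33. Over all genes tested, 2.8% were called lower. The other 5 keratin-associated proteins did not pass, among them Krtap1-5 at -1.46 and Krtap9-3 at -1.04. Whichever array was left out, Krtap9-1 kept its call, while that of Krtap14 was kept only without array 3 or 8 and that of Krtap15 only without array 5 or 8.

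Keratins outside the hair shaft and its sheath gave 1 higher gene and none lower, against 0.662% higher and 2.8% lower over all genes tested. Of 8 epidermal and other keratins tested, the higher one was Krt1 of the suprabasal epidermis, at 1.30 ± 0.27 (SE, 7 arrays, limma adjusted p = 0.0241, call lost without array 1, 5 or 6), and 7 did not pass, among them Krt19 at -0.46 and Krt80 at 0.35. Their median was -0.19. In the gene order Krt36 and then Krt13, Krt15 and Krt19 follow Krt35. Krt13, a keratin of internal stratified epithelia, had a fitted ratio of -0.15 and did not pass, and Krt15, a keratin of basal cells, was above 0 on 5 of 6 arrays and not in the fit. On the other side of Krt88 and Krt87, Krt7 had a fitted ratio of -0.28 and did not pass.

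**Figure D3:**
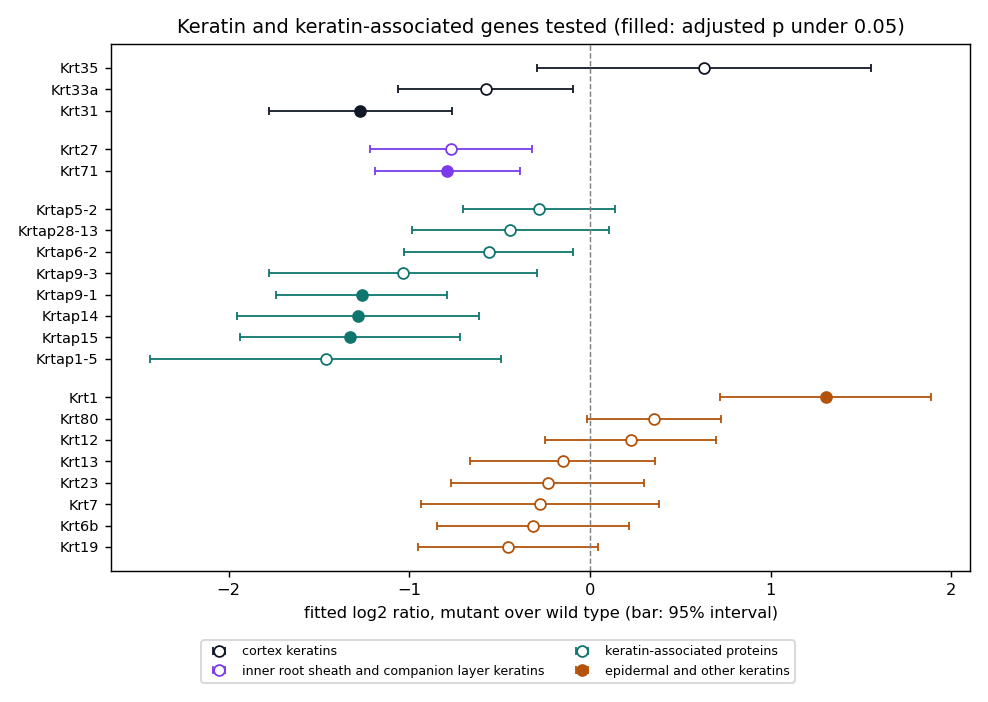
Fitted log2 ratio of mutant over wild type (horizontal axis) with its 95% interval for each keratin and keratin-associated gene tested (vertical axis), coloured by list and filled where the limma adjusted p was under 0.05. Krt31 at -1.27 lies among the keratin-associated proteins, and Krt35 has the widest interval of the keratins.

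Of the regulators of the hair shaft, 28 had values and 19 were tested. Fgf5, the signal that ends hair growth, fell by 1.11 on the log2 scale (SE 0.20, limma adjusted p = 0.0133, below 0 on 7 of 7 arrays, call lost without array 1 or 6), none was higher, and 18 did not pass. The largest ratios among these 18 were those of the vitamin D receptor gene Vdr and of the BMP receptor gene Bmpr1a, both at -0.97, with array 2 at -4.80 and -3.45. The median of this list was 0.03. Beside its 1 lower gene of 19 tested, 2.8% of all genes tested were lower and 0.662% higher. Lef1, named here for the promoter letters and outside the naming rule, had a fitted ratio of 0.03 ± 0.21 (SE, 6 arrays, limma adjusted p = 0.952), and Hoxc13 had no row that could be named. Of the other genes of hair shaft structure and assembly, which include desmosomal proteins, transglutaminases and peptidylarginine deiminases, 8 had values, 6 were tested and none passed, with Tgm3 at -0.36 and Tgm1 at 0.32.

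Markers of other cells of whole skin were counted beside these results, where 0.662% of all genes tested were called higher and 2.8% lower. Among fibroblast genes Vim was higher (1.17, 1 of 2 tested), among adipocyte genes Cfd (1.96, 1 of 2 tested) and among mast cell genes Mcpt2 (1.05, 1 of 3 tested). Of the other mast cell genes, Cma1 at 0.51 and Mcpt4 at 0.05 did not pass. Cpa3 and Tpsb2, not in the fit, were below 0 on 3 of 5 and 2 of 4 arrays. Sparc of fibroblasts at 0.93 and Lep of adipocytes at 0.43 did not pass. Col1a2 of fibroblasts, not in the fit, was below 0 on 2 of 5 arrays. Vim was above 0 on 8 of 8 arrays. It was split by dye, with all arrays of mutant RNA in Cy3 above all arrays of mutant RNA in Cy5, as were 11.6% of genes tested. Its call was lost without the dye term (limma adjusted p = 0.0554). C1qb of macrophages was lower (-1.37, 1 of 4 immune genes tested), as was Mbp of myelin (-0.90, 1 of 3 nerve genes tested). The split by dye seen for Vim was also seen for Mbp, Lyz2, Tnnt3 and Ckm. The other immune genes went both ways without passing, among them Tyrobp at 0.71 and Lyz2 at -0.74. The call of C1qb was lost without array 1, 5 or 6 and that of Mbp without any 1 of arrays 1, 2, 5, 6, 7 and 8. No gene passed among 3 of melanocytes, 3 of endothelium and blood and 1 of skeletal muscle, and their ratios lay on both sides of 0. The melanocyte genes Tyr and Pmel stood at -0.50 and 0.12, and the endothelial genes Pecam1 and Cdh5 at -0.72 and 0.70. Tnnt3 of muscle stood at -1.23, while Ckm and Mylpf, the other muscle genes with values, were not in the fit and were each above 0 on 4 of 6 arrays. With the table read as Cy5 over Cy3, whose test is that of the dye part, none of the keratin, regulator and marker genes called here kept its call. On arrays 4 to 8 alone, none of those that could be fitted did. Under the reading as Cy5 over Cy3 the ratios of Vim, Krt1, Krtap9-1 and Krtap15 changed sign (-0.71, -0.40, 0.35 and 0.50). Without the dye term the calls of Krt71, Krt1, Krtap14, Krtap15 and Mbp were lost as well as that of Vim. The part of a different mix of cells in the ratio of Krt31 was not tested.

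The fitted ratio of Krt31 stayed below 0 under every other setting in which it was fitted, with the call kept in 16 and lost in 3. Those 3 include the reading as Cy5 over Cy3, whose ratio of -0.14 repeats the test of the dye part. Leaving out array 1, the looser filters and the fit of each probe on its own used the same 7 values of Krt31. In these settings its ratio could not move from -1.27, only its p-value could. Without 1 array in turn, Krt31 ran from -1.40 to -1.11, Krt33a from -0.72 to -0.48 and Krt35 from 0.11 to 0.90.

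**Figure D4:**
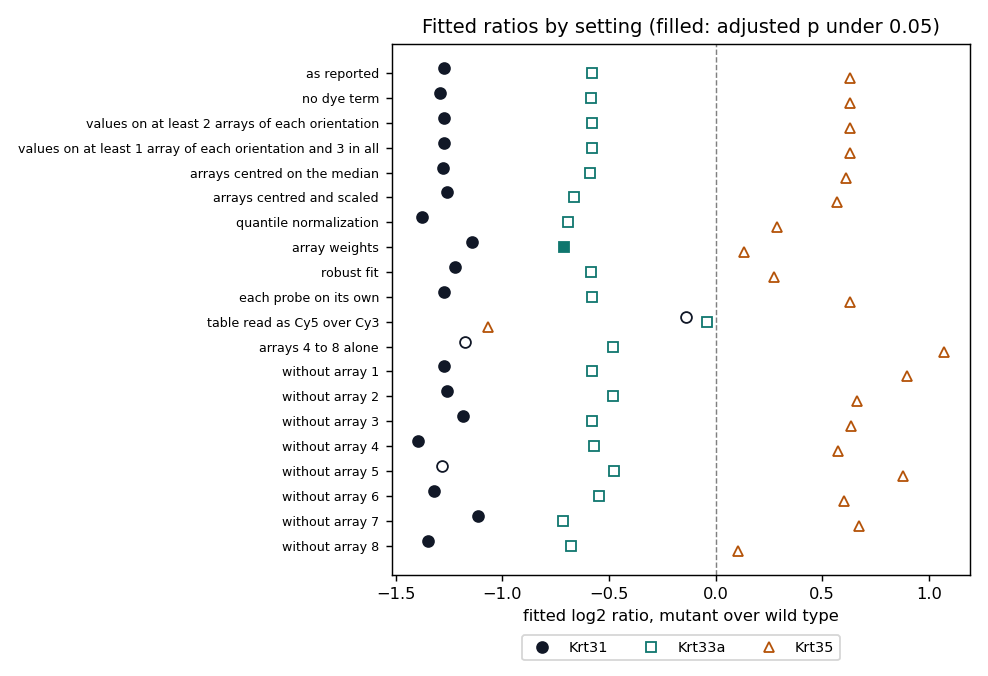
Fitted log2 ratio of mutant over wild type (horizontal axis) of Krt31, Krt33a and Krt35 under each setting tried (vertical axis), filled where the limma adjusted p was under 0.05. Krt31 is open without array 5, on arrays 4 to 8 alone and where the table is read as Cy5 over Cy3, and Krt35 lies at -1.07 under that last reading.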

How the data were processed

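The deposited values are log ratios, 1 per spot and array, taken here as log2. No source used here gives the image analysis, the normalization, the base, the direction or why values are missing. Of 23232 rows, 1235 control rows were left out, and replicate spots of Gapdh were averaged. Rows were named by RefSeq accession (6749 rows) or synonym (77) through a gene table of GRCm38.p6, and 15171 stayed unnamed. Ratios between arrays of opposite orientation over 232 Gapdh spots correlated below 0 in 16 of 16 pairs (median r = -0.45), and none of the 12 pairs with equal orientation did. The table was therefore read as turned to 1 direction already.

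The fit used limma 3.58.1 in R 4.3.3 with eBayes, the dye coded as 0.5 and -0.5. It was tested on simulated data. Sign-flip tests enumerated all signs over arrays. Other filters, normalizations, weights, a robust fit, a probe-level fit, the other reading and left-out arrays were run as alternatives. The members, the lists and these alternatives were chosen with earlier results of these data known. Named were all 5 members, every other list gene past the threshold, and up to 2 genes a list with the largest ratios that did not pass, for the lists with tested genes. Some listed genes that were not in the fit were named as well. Spot intensities were not analysed here, so the number of arrays set the precision. One result of the ranking by likeness is not reported here.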

Additional observations from a re-analysis of the deposited data

Results flagged for a closer look

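Dixon's test set 1 array apart in 10 of 44 sets of values across arrays. Chance alone would do so in about 1 of 20 sets, here 2.2, if the sets were separate and the arrays equal in spread. Neither held, since the SD of an array's ratios ran from 0.57 to 1.60 and the differences within an array reuse the members' values. The count is therefore not read as an excess over chance. Krt35 stood at 4.83 on array 8 and Krt88 at -4.51 on array 2. Of the differences within an array, Krt31 minus Krt33a was -2.57 on array 7, Krt31 minus Krt88 was 3.03 on array 2 and Krt33a minus Krt35 was -4.98 on array 8. Among the other genes named, array 2 stood apart for Vdr (-4.80), Bmpr1a (-3.45) and Pecam1 (-1.93), array 8 for Lep (1.46) and array 5 for Mcpt2 (0.15).

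Krt35 was below 0 on all 4 arrays with the mutant in Cy5 and above 0 on all 4 with the mutant in Cy3. The difference between the orientations was -2.14 (dye part, limma adjusted p = 0.119). This order without overlap was seen in 11.6% of genes tested.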

How the results depend on the processing

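The fitted ratio of Krt31 was -0.14 with the table read as Cy5 over Cy3 and -1.17 on arrays 4 to 8 alone, both without a call, and -1.40 to -1.11 without 1 array in turn. Krt33a passed with array weights (-0.71). Krt35 was -1.07 under the reading as Cy5 over Cy3. The count of cortex keratins called lower went from 1 to 0 with values on all arrays, under that reading and on arrays 4 to 8 alone, to 2 with array weights, and ran from 0 to 1 without 1 array. Krt31 had no value on array 1 and so was not among the genes with values on all arrays. The 131 genes past the threshold became 64 without the dye term, 81 with values on all arrays, 206 with scaling, 350 with quantile normalization, 491 with array weights, 379 with the robust fit, 66 under the reading as Cy5 over Cy3, 0 on arrays 4 to 8 alone (limma, 741 of 4700 at an unadjusted p under 0.05), and 53 to 130 without 1 array. The splits into higher and lower were 25 and 106 as reported, 128 and 222 with quantile normalization, 184 and 307 with array weights and 153 and 226 with the robust fit. They were 62 and 4 under the reading as Cy5 over Cy3, the same counts as for the dye part. Under that reading Krt31 minus Krt35 was 0.89, Krt31 minus Krt88 0.39, Krt33a minus Krt35 0.86 and Krt35 minus Krt88 -0.12. Krt33a minus Krt88 was -0.062 with quantile normalization, -0.23 on arrays 4 to 8 alone and -0.23 to 0.63 without 1 array. The cause of these changes was not tested. Each ratio already pairs mutant and wild type RNA within an array. Arrays could not be grouped by animal, because the labels tie none to an animal.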
